A study of Mus musculus with 30 samples.

Results

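The 1136 miRNA genes of mouse chromosomes 1 to 19, out of 46709 annotated genes of all kinds there, were located against the replication initiation zones of mouse embryonic stem cells. The genes were selected by their miRNA biotype in the gene table of RefSeq (GRCm38.p6, which is mm10), and no measured value entered that choice. The zone positions are the only measured values, and they divided the genes into those with at least 1 base in a zone and those without. The shares below are therefore descriptions, and no test was made on them. Genes less than 10 kb apart were joined into clusters, and clusters and single genes together are called loci, of which there were 895. A gene was called inside when it lay within the body of a protein-coding gene, its host, and outside otherwise. The table gave no exons for the hosts, so whether a miRNA lay in an intron or an exon was not analysed here.

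The zones came from 1 OK-seq library of the wild type E14TG2a line, grown on gelatin in 2i medium with LIF and labelled with 10 µM EdU for 2 min. OK-seq sequences Okazaki fragments, the short pieces of the lagging strand, whose strand tells in which direction replication forks moved. The series holds 30 samples in 17 groups, most of them SCAR-seq of histone marks on new DNA in wild type cells and in MCM2-2A clones, and the other 29 samples were not analysed here. With 1 library there was no second group and no replicate error, and the depth behind the zones is unknown. The deposited list held 2844 zones, each with a left edge, a right edge and a breakpoint bin of 1 kb between them, and the stretch from the breakpoint to an edge is called an arm. Distances to a zone run from the nearest base of the gene, and distances to a breakpoint from the middle of the gene to the middle of the bin. The intervals given with shares are Wilson 95% intervals. They cover counting error only and treat genes or loci as independent, which neighbours are not.

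MicroRNAs are short RNAs cut from hairpins, in the nucleus by Drosha with Dgcr8 and in the cytoplasm by Dicer, and then held by Argonaute proteins. The seed, bases 2 to 8 of the mature strand, pairs with target mRNAs and sets which transcripts are repressed. Many are cut from the transcript of a protein-coding host, others from long noncoding RNAs of their own, and neighbours often come from a common transcript. In mouse embryonic stem cells the Mir290 to Mir295 cluster is the major source of miRNA, and its AAGUGC-type seeds support the fast cell cycle of these cells. The let-7 family rises in differentiation, and Lin28 proteins block its maturation in stem cells.

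Sequences of the mature strands came from RefSeq on GRCm38.p6, and 966 of the 1136 genes matched at least 1 mature strand there, 1581 strands in all. The strands whose seed holds AAGUGC are shown because they are the stem cell group described further on. AAGUGC was searched within bases 2 to 8 after the positions of the clusters had been seen. It was found in 12 strands from 12 genes at 5 loci, and 11 of the genes and 4 of the loci were in zones. For the 72 genes of the Sfmbt2 cluster, described further on and all outside zones, no strand was matched. They could not be searched, so the count of strands outside zones may be too low. Among all miRNA genes 25.4% were in zones, and among all miRNA loci 26.9%. The 11 genes are members of the stem cell clusters whose positions had been seen, so these counts restate those positions. Capitals mark the seed, and the strands run 5′ to 3′.
miR-290a-3p: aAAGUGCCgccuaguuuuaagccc
miR-291a-3p: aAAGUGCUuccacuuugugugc
miR-291b-3p: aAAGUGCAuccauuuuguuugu
miR-294-3p: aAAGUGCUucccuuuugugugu
miR-295-3p: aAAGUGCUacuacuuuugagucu
miR-302b-3p: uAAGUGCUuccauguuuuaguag
miR-302d-3p: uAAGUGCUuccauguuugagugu
miR-17-5p: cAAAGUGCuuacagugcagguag
miR-20a-5p: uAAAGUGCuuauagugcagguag
miR-93-5p: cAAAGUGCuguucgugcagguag
miR-106b-5p: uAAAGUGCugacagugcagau
miR-350-5p: aAAGUGCAugcgcuuuggg
Of the strands shown, those of the Mir290 to Mir295 and Mir302 clusters carry AAGUGC at the start of the seed. Those of Mir17, Mir20a, Mir93 and Mir106b carry it 1 base later. Other matched strands of the same clusters do not hold it in the seed, such as miR-293-3p with GUGCCGC and miR-302c-3p with AGUGCUU. For Mir302a and Mir292 the 3p strand was not among those matched, so it was not searched. Among the matched strands, miR-350-5p is the one from outside the zones: Mir350 lay in Cep170 on chr1:176772325-176772423, 40.3 kb from the nearest zone. A further seed, AUUGCAC, is shared by members of the same clusters and by separate genes, and is shown for that reason.
miR-367-3p: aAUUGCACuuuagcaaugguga
miR-92a-3p: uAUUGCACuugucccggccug
miR-25-3p: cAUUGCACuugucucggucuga
miR-92b-3p: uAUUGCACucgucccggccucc
miR-32-5p: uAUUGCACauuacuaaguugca
Of these 5 loci, 4 were in zones. Mir367, Mir92-1 and Mir25 belong to the stem cell clusters, and Mir92b on chr3:89227116-89227198, a single gene outside protein-coding bodies, lay 3.34 kb from its breakpoint. Mir32, inside Tmem245 on chr4:56895229-56895298, lay 18.7 kb from a zone.
The let-7 strands share GAGGUAG and are shown as the family that opposes the AAGUGC group in stem cells.
let-7g-5p: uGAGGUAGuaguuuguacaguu
let-7f-5p: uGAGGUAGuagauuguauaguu
let-7d-5p: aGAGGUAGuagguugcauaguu
let-7a-5p: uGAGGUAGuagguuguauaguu
let-7b-5p: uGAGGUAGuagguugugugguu
let-7c-5p: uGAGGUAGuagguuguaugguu
let-7e-5p: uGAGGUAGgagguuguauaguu
let-7i-5p: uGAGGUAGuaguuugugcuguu
With let-7k and miR-1961, which carry the same seed and were outside zones, GAGGUAG was found at 8 loci, of which 2 were in zones. Seed counts cover only the strands matched, and for Mirlet7a-2, outside zones, the 5p strand was not among them. Among the 13 seeds found at 4 or more loci, AUUGCAC had the highest share of loci in zones. AGGAGAG followed with 3 of 4 loci and AGGGAGG with 3 of 5. GUCAGGC, the seed of the miR-344 group, had 0 of 7 loci in zones, CCCUGAG, the seed of miR-125, had 0 of 5, and CUGUUCU had 0 of 4. The loci of Mir344d-1 and Mir344d-3 lay near each other on chromosome 7, with the same nearest zone. Loci of the miR-344 group are therefore not all separate places. Counts this small do not separate the seeds: 4 or 5 loci leave wide counting intervals.

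In all, 288 of 1136 miRNA genes had a base in a zone, 25.4% (22.9 to 28.0%). Zones covered 12.98% of the 2402 Mb span of the chromosomes, and 19.9% of genes of all kinds had their midpoint in a zone. Among protein-coding genes, 22.5% had their midpoint in a zone (4632 of 20558, interval 22.0 to 23.1%). The miRNA share was 2.82 percentage points above that, with a 95% interval of the difference from 0.31 to 5.49 points. That interval included 0 under 3 alternatives: with zones of median width or more alone (0.64 points, -1.41 to 2.91), in the central part of zones (0.36 points, -1.44 to 2.42) and with a margin of 20 kb (1.65 points, -1.06 to 4.48). The miRNA share stood nearer to the share of protein-coding genes than to the share of bases. By locus, with each cluster counted once, 241 of 895 were in zones, 26.9% (24.1 to 29.9%). Other small RNA genes stood on either side of miRNA genes. Midpoints of tRNA genes were in zones for 144 of 386, 37.3% (32.6 to 42.2%), and those of snoRNA genes for 217 of 1276, 17.01% (15.0 to 19.2%). Counted by locus, tRNA genes stood at 35.4% (28.4 to 43.05%) and snoRNA genes at 17.4% (15.1 to 19.9%). The interval of tRNA loci overlaps that of miRNA loci, and the interval of snoRNA loci does not.

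**Figure D1:**
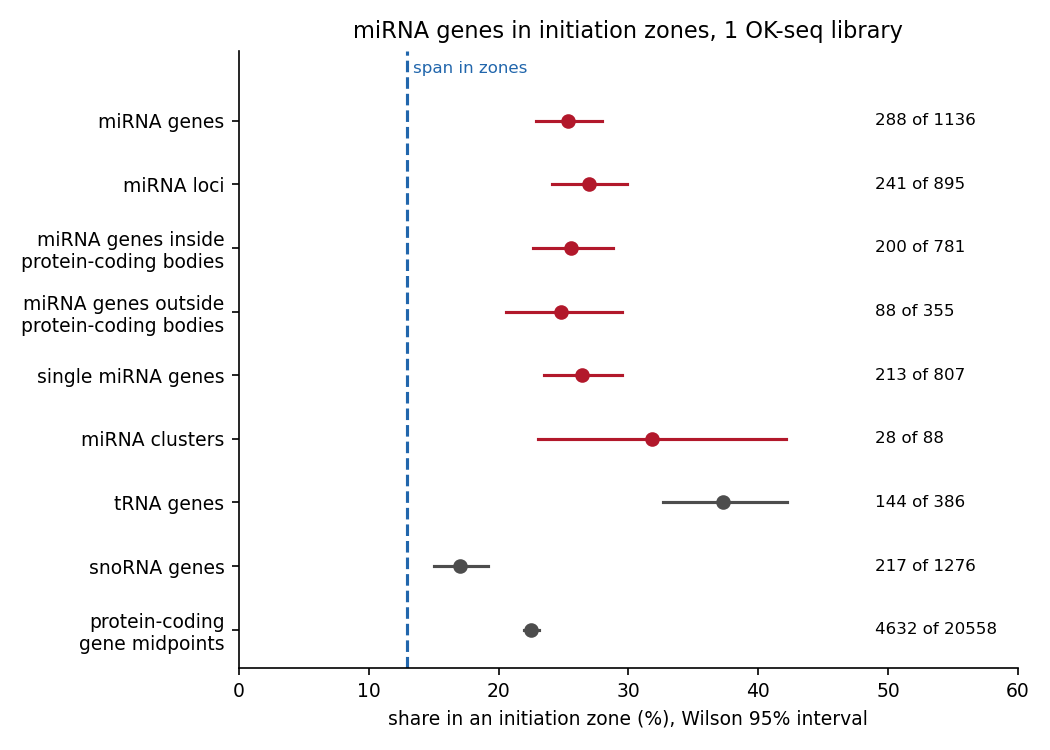
Share of genes or loci in an initiation zone (x axis, percent) for miRNA sets (red) and for other gene kinds (grey), with Wilson 95% intervals and counts at the right; the dashed line is the 12.98% of the span in zones. The intervals of the miRNA sets overlap each other, while tRNA genes sit above miRNA genes and snoRNA genes below.

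The median miRNA gene lay 78.5 kb from the nearest zone, with the upper quartile at 213 kb, against a median of 93.4 kb for the midpoints of protein-coding genes. Within 20 kb of a zone were 31.6% of miRNA genes, and 41.2% were within 50 kb. Of the 288 genes in zones, 288 lay there whole, and miRNA genes have a median length of 80 bp. The genes just inside an edge were Mir7025 in Pdgfra, 0.096 kb inside, and Mir709 in Rfx1, 0.814 kb inside. Just outside were Mir7237 in Banp, 0.024 kb away, and Mir1929 in Atg5, 0.233 kb away. Edges are placed in bins of 1 kb, so these 4 genes lie within the resolution of the list. The farthest genes were Mir297-1 at 3633 kb, Gm51268 and Mir9-2 at 1984 kb, Mir568 in Tigit at 1976 kb and Mir30a at 1715 kb. Gm51268 and Mir9-2 overlap each other, so they are 1 place. Across chromosomes the share of loci in zones ran from 10.7% on chromosome 13 (3 of 28, interval 3.71 to 27.2%) to 37.8% on chromosome 19 (14 of 37, interval 24.1 to 53.9%). The intervals of these 2 extremes overlap. Zones covered 12.97% of the span of chromosome 13 and 17.04% of that of chromosome 19. Per gene the lowest share was 11.3% on chromosome 12, which became 27.5% by locus. The 59 genes of the Meg3 to Mirg region outside zones are on that chromosome and count as 4 loci.

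Clusters were in zones whole or not at all. Of 88 clusters with 329 genes, 28 were wholly in zones, 60 wholly outside and 0 divided by an edge. The gaps that decided joining were 9.25 kb between Mir1a-1 and Mir133a-2 and 9.43 kb between Mir6973a and Mir6974, just below the limit, and 10.2 kb between Mir6410 and Mir6908 and 10.7 kb between Mir216b and Mir216a, just above. By size, 20 of 67 clusters of 2 genes were in zones, 5 of 12 clusters of 3 genes, 0 of 3 clusters of 4 genes and 3 of 6 clusters of 5 or more. Clusters stood at 31.8% (23.0 to 42.1%) and the 807 single genes at 26.4% (23.5 to 29.5%), with overlapping intervals. The clusters of 5 or more held 147 genes, and the 3 in zones were Mir290 to Mir295, Mir302 with Mir367, and Mir17 to Mir92-1.

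The clusters listed here as stem cell clusters are Mir290 to Mir295, Mir302 with Mir367, Mir17 to Mir92-1, and Mir106b with Mir93 and Mir25. All 4 were in zones, with 23 of 23 genes, beside 28 of 88 among all clusters, 31.8%. The list was chosen with earlier results known and does not stand for all clusters active in stem cells. They are 4 of the 28 clusters in zones. They occupied 4 separate zones on 4 chromosomes. The Mir290 to Mir295 cluster has 9 genes on chr7:3218626-3220841, in a zone that ran from 3154001 to 3286000. Its genes lay 4.69 kb (Mir295) to 6.83 kb (Mir290b) from the breakpoint, which is 6.56 to 9.56% of the length of the left arm. Of the 9 genes, 7 lay inside the body of Nlrp12, a gene of the NLR family, and 6 of those were on the strand opposite to it. No other zone held as many miRNA genes. The Mir106b, Mir93 and Mir25 cluster, a paralogue of the Mir17 cluster, occupied chr5:138165321-138165818 inside Mcm7, on the strand of that gene. Mcm7 encodes a subunit of the replicative helicase, and its 7.53 kb body was wholly in the zone. The 3 genes lay 9.86 to 10.3 kb from the breakpoint.

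The other 2 clusters lay farther out in their zones. The Mir302 and Mir367 cluster on chr3:127545228-127545807 had 5 genes inside Larp7, on the opposite strand, in a zone from 127431001 to 127573000. They were 48.8 to 49.3 kb from the breakpoint, or 63.7 to 64.4% along the right arm. The Mir17 to Mir92-1 cluster on chr14:115043671-115044506 had 6 genes, whose products promote proliferation. They were 47.0 to 47.8 kb from the breakpoint, or 58.4 to 59.4% along the left arm of a zone from 115011001 to 115124000. Mir17hg, the noncoding RNA gene of the cluster, whose annotated body starts within it, was wholly in the zone.

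**Figure D2:**
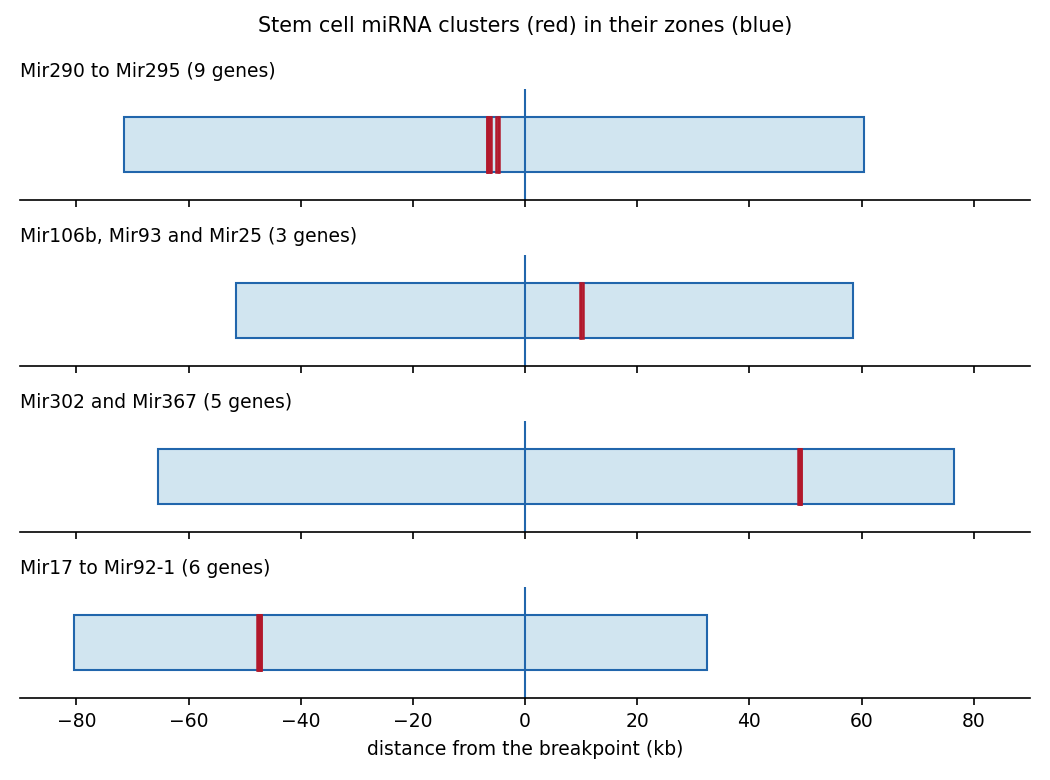
Position of the 4 stem cell miRNA clusters (red lines, 1 per gene) in their zones (blue bars) as distance from the breakpoint in kb (vertical blue line at 0). Mir290 to Mir295 and Mir106b, Mir93 and Mir25 sit within 11 kb of the breakpoint, and the other 2 clusters 47 to 50 kb from it.

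The let-7 genes described here were spread over 7 loci, of which 2 were in zones, beside 26.9% of all miRNA loci. Of the 10 genes 4 were in zones. Not counted among them is let-7k, which was outside zones. Mirlet7d, Mirlet7f-1 and Mirlet7a-1 form a cluster on chromosome 13 that lay 13.3 to 15.4 kb from its breakpoint, outside protein-coding bodies. Mirlet7g, inside Wdr82 on chromosome 9, lay 49.6 kb from its breakpoint. The other 6 genes were outside zones. Mirlet7c-2 and Mirlet7b on chromosome 15 were 37.6 and 38.3 kb away, Mirlet7i 56.3 kb and Mirlet7e, inside Spaca6, 61.4 kb. Mirlet7a-2 and Mirlet7c-1, each in a cluster of 2 genes, were 565 and 570.3 kb away.

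Apart from the muscle and Mir29 genes, each named family with genes at several places was divided between zones and the remaining genome. Among miRNAs of the nervous system, Mir9-3 was in a zone, Mir9-1 was 20.3 kb from one and Mir9-2 1984 kb. For Mir124, the brain miRNA that represses non-neuronal transcripts, Mir124a-1 was in a zone, Mir124a-3 was 15.9 kb away and Mir124a-2 379 kb. Of the Mir34 genes, targets of p53, Mir34a was in a zone 7.004 kb from its breakpoint, while Mir34b and Mir34c in Hoatz were 298 to 299 kb away. The epithelial Mir200 family divided by cluster: Mir141 and Mir200c on chromosome 6 were in a zone, 66.6 and 66.1 kb from its breakpoint. Mir200a, Mir200b and Mir429 on chromosome 4 were 265 to 267 kb from any zone.

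Growth-restraining Mir15 and Mir16 genes showed 2 of 8 family members in zones, at 1 of 4 loci, beside 26.9% of all miRNA loci. Mir15b and Mir16-2, inside Smc4, a condensin subunit gene, were in a zone. The related pair Mir15a and Mir16-1 was 8.03 and 7.88 kb outside one. Of the Mir30 genes 5 of 7 were in zones, at 2 of 4 loci, beside 26.9% of all miRNA loci. Those on chromosome 15 were Mir30b and Mir30d. Mir30c-1, Mir30e and Mir30f on chromosome 4 lay inside Nfyc, a subunit gene of the CCAAT-binding factor. Mir30e and Mir30f occupy the same bases on opposite strands. Mir30a and Mir30c-2 on chromosome 1 were 1715 and 1695 kb away. Mir182, Mir96 and Mir183, a cluster of sensory cells, were in a zone 12.8 to 16.6 kb from its breakpoint.

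The Mir1, Mir133 and Mir206 genes of muscle numbered 8 at 4 loci, with 0 in zones and distances from 57.9 to 526 kb. With 26.9% of all miRNA loci in zones, 0 of 4 loci does not set them apart. The 4 Mir29 genes, which repress collagen transcripts, were likewise outside, 131 to 1418 kb from a zone. In the Hox clusters Mir10b, inside Hoxd4, was in a zone, and Mir10a, Mir196a-1, Mir196a-2 and Mir196b were 125 to 204 kb away. Single miRNAs of immune cells were divided: Mir155 was in a zone, 42.3 kb from its breakpoint, and of the Mir146 genes Mir146b was in a zone and Mir146 was 222 kb away. Mir21a, inside Vmp1, was in a zone 15.6 kb from its breakpoint, with Mir21b and Mir21c 707 and 318 kb from any zone. Mir22 was 179 kb away. Mir296 and Mir134 are known to target pluripotency factors, and Mir296 was in a zone while Mir134 was 174 kb from one.

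**Figure D3:**
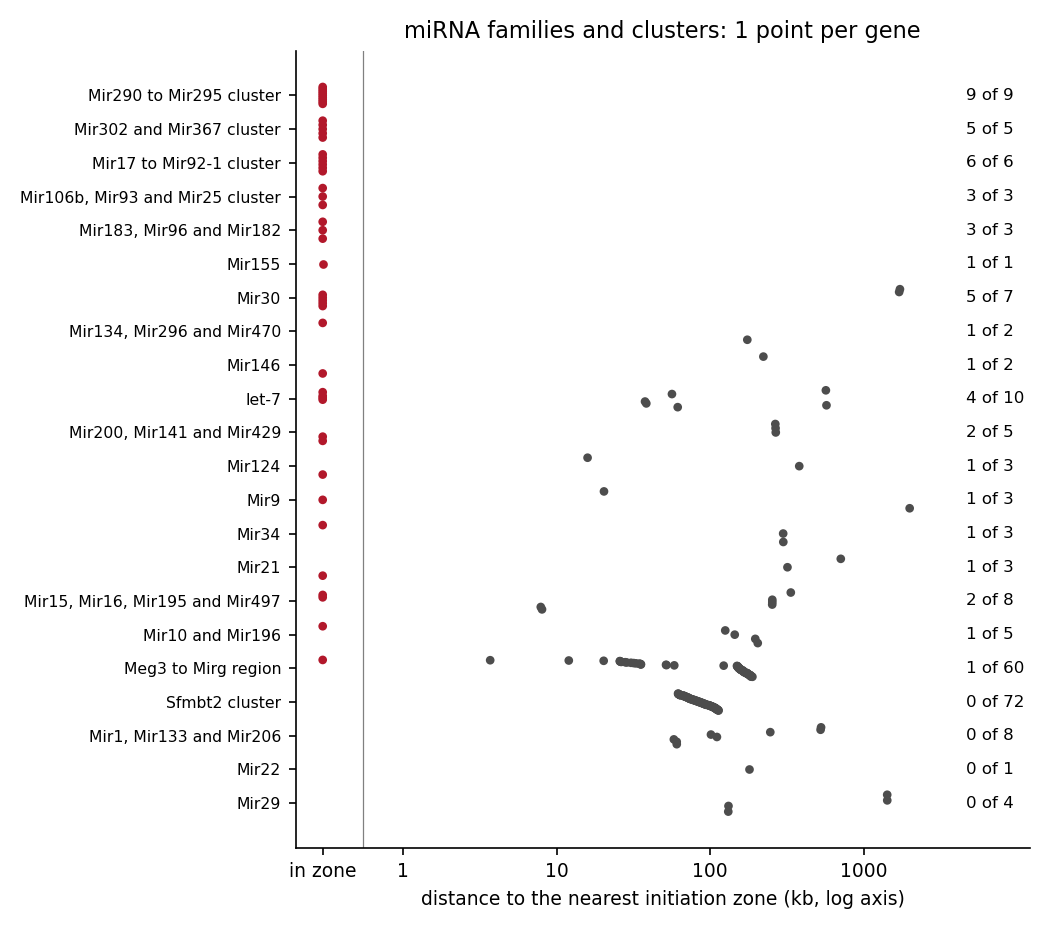
Distance of each gene of the named miRNA families and clusters to the nearest initiation zone (x axis, kb, log axis; genes in a zone at the left, red), with 1 point per gene and the count in zones at the right. The listed stem cell clusters sit wholly in zones. The Sfmbt2 cluster and the muscle and Mir29 genes sit wholly outside, and most other families are divided.

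The largest clusters were outside zones. The Sfmbt2 cluster, a rodent-specific array of Mir297, Mir466, Mir467 and Mir669 copies, held 72 genes over 51.6 kb on chr2:10466663-10518279. All 72 lay inside Sfmbt2, a Polycomb-group gene that is imprinted in extraembryonic tissue, and 0 were in a zone. They were 61.7 to 113 kb from the zone that ran from 10266001 to 10405000. That zone covered 1 end of the host, and zones covered 15.4% of the 225 kb body. These genes made up 72 of the 781 inside genes, and without the cluster the share of all miRNA genes in zones was 27.1%.

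The imprinted Meg3 to Mirg region of chromosome 12, whose noncoding RNAs are expressed from the maternal chromosome, held 60 miRNA genes at 5 loci. Of these 1 gene, Mir1906-1, was in a zone. The zone ran from 109421001 to 109560000 with its breakpoint bin at 109511001. It held the whole of Dlk1, the paternally expressed gene at 1 end of the region, and 61.8% of Meg3. Beyond it the distance grew along the region. Mir770 was 3.69 kb from the zone, Mir370 58.3 kb and Mir379 149 kb, and Mir3072, the last, 188 kb. The locus from Mir770 to Mir136 had 16 genes, 15 of them inside the body of Rtl1, and the locus from Mir379 to Mir3072 had 39. Rian lay 43.95 kb and Mirg 175 kb from a zone.

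Of 781 inside genes 200 were in zones, 25.6% (22.7 to 28.8%), and of 355 outside genes 88, 24.8% (20.6 to 29.5%). The difference was 0.82 percentage points, with a 95% interval from -4.76 to 6.09 points. It was 5.40 points when genes within 20 kb of a zone were counted (-0.44 to 10.96) and -2.92 points in the central part of zones (-7.37 to 1.07). By locus, where a cluster with genes of both kinds counts in each, 177 of 643 inside loci were in zones, 27.5%, and 67 of 256 outside loci, 26.2%. The medians of distance differed more, 62.9 kb for inside genes and 153.8 kb for outside genes. Single genes gave 54.0 kb inside and 154 kb outside. The bases of protein-coding bodies were in zones at 14.5%, and bases outside them at 11.9%. Outside genes that lay in a long noncoding RNA gene were in zones for 28 of 113, and those in neither kind of gene for 60 of 242, 24.8% each.

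Strand relative to the host could be read for 562 of the 781 inside genes. Of those on the strand of the host 136 of 482 were in zones, 28.2% (24.4 to 32.4%), and of those on the opposite strand 29 of 80, 36.3% (26.6 to 47.2%). The intervals overlap. The opposite group includes 5 genes of the Mir302 cluster and 6 of the Mir290 cluster, which are 2 places. For the other 219 genes the strand of the gene or of the host was not in the tables used here, and 35 of them were in zones, 15.98%. They include the 72 Sfmbt2 and 15 Rtl1 genes, all outside zones, and without these 2 places the share was 35 of 132, 26.5% (19.7 to 34.6%).

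The hosts numbered 636, with a median length of 38.3 kb, and 46 of them held 2 or more miRNA genes. Of the hosts 350 had no base in a zone and 106 were wholly in zones, with median lengths of 31.4 and 16.4 kb. Hosts that were covered in part allow the place of the miRNA to be set against the covered share. Of 186 loci in such hosts 71 were in a zone, 38.2%, while zones covered on average 34.3% of the host bodies. Per gene the order was the other way, 76 of 267 genes, 28.5%, with a mean coverage of 29.4%. Over all inside loci the pair of values was 27.5% and 26.4%, and over all inside genes 25.6% and 25.9%. Host genes without a single miRNA in a zone included Sfmbt2, Rtl1, Aopep with 4 genes, and Cdc20b, Lingo2, Mib1 and Spaca6 with 3 each. Hosts with 3 or more genes in zones were Nlrp12, Larp7, Mcm7 and Nfyc.

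The start of the host was listed for 522 inside loci. In hosts wholly in zones or wholly outside them, the locus and the host start take the same side by construction, so the place of the start was read in partly covered hosts alone, of which 152 loci had a listed start. There the host start was in a zone for 40 of 57 loci in zones, 70.2% (57.3 to 80.5%), and for 67 of 95 loci outside, 70.5% (60.7 to 78.8%). The intervals of the 2 shares overlap over most of their length, and this reading was added after the values had been seen. By distance from the nearest listed start of the host, loci under 10 kb were in zones for 75 of 207, 36.2% (30.0 to 43.0%). At 10 to 50 kb the count was 57 of 204, 27.9% (22.2 to 34.5%), at 50 to 100 kb 8 of 64, 12.5% (6.47 to 22.8%), and at 100 kb or more 6 of 47, 12.8% (5.99 to 25.2%). In partly covered hosts alone the counts were 23 of 32, 21 of 53, 7 of 36 and 6 of 31 in the same order of classes, 71.9, 39.6, 19.4 and 19.4%. These classes of distance were set after the values had been seen. Loci far from a host start lie in long genes, so distance and host length cannot be told apart here. No share of host bases in zones at the same distances was computed, so whether the fall is particular to miRNA loci was not tested.

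**Figure D4:**
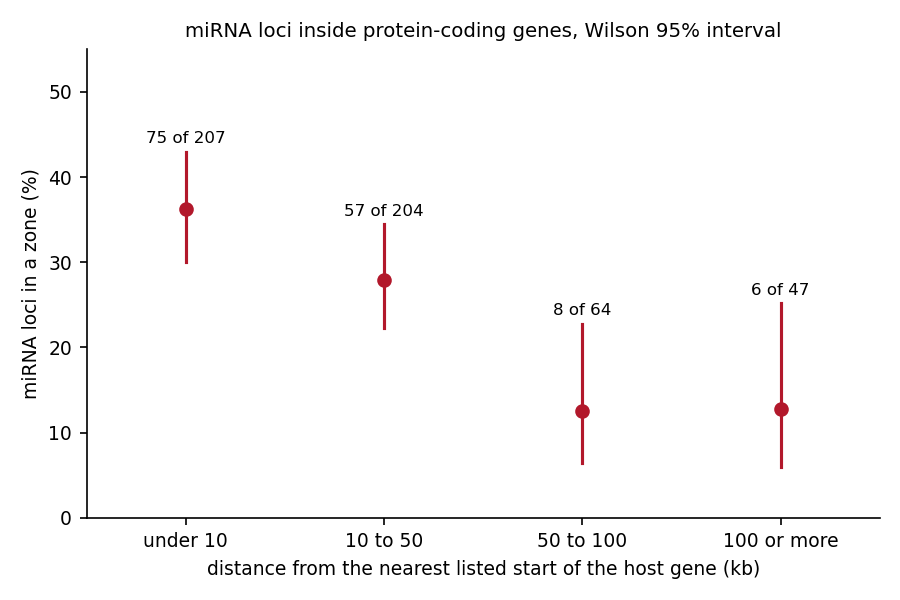
Share of inside miRNA loci in an initiation zone (y axis, percent, Wilson 95% interval) by distance from the nearest listed start of the host gene (x axis, kb), with counts above the points. The share is 36.2% under 10 kb and 12.5 to 12.8% in the 2 classes from 50 kb on.

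Along the zones miRNA genes were spread over the arms with no higher density at the breakpoint than elsewhere on the arms. The median gene in a zone lay 29.3 kb from the breakpoint, 160 genes to its left and 128 to its right. The mean position was at a fraction of 0.502 of the arm, where 0 is the breakpoint and 1 the edge. The inner part of the arms, up to the midway point, held 134 of the 288 genes, 46.5%. Inside genes were there for 85 of 200, 42.5% (35.9 to 49.4%), and outside genes for 49 of 88, 55.7% (45.3 to 65.6%), with medians of 32.8 and 23.8 kb from the breakpoint. The intervals of these shares overlap, but no interval of their difference was computed, and each gene of a cluster counts here. In bins of 20 kb around all breakpoints, the density of miRNA loci was 1.98 to 2.22 times that of the whole span within 70 kb on either side, and that of protein-coding midpoints 1.59 to 1.91 times. Farther out it was 1.13 to 1.51 times from 90 to 150 kb on the left. On the right it was 1.32 to 1.42 times from 90 to 130 kb and 1.89 times in the last bin, with 40 loci (exact Poisson 95% interval 1.35 to 2.57).

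**Figure D5:**
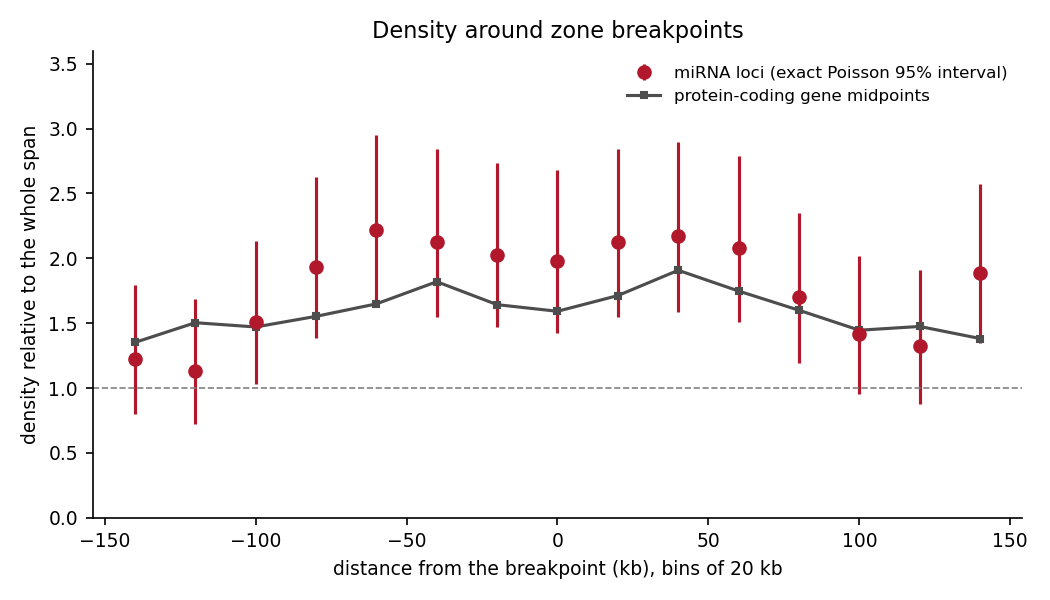
Density of miRNA loci (red, exact Poisson 95% interval) and of protein-coding gene midpoints (grey) relative to the whole span (dashed line at 1), in 20 kb bins of distance from the breakpoints of all 2844 zones. Both stand above 1 across the window, miRNA loci at 1.98 to 2.22 and protein-coding genes at 1.59 to 1.91 within 70 kb.

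Of the 5 genes nearest to a breakpoint, Mir150, a lymphocyte miRNA, was 0.289 kb from it, in a cluster with Mir5121, which lay inside Rpl13a. Mir3109 in Anxa2 was 0.513 kb away, Mir6912 in Scamp4 0.794 kb, Mir6969 in Clps 0.971 kb and Mir6907 in Rrp1 1.01 kb. The breakpoint bin itself overlapped 2 miRNA genes. A bin is 1 kb wide, so the order of these 5 is not resolved by the list.

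Of the 2844 zones 230 held a miRNA gene, 8.09%. Of these 189 held 1 gene, 27 held 2 and 14 held 3 or more. Zones with a miRNA gene had a median width of 124 kb (quartiles 92 to 146 kb), and those without 111 kb (quartiles 81.3 to 138 kb), and a wider interval has more room for a gene. The 14 zones stood for 12 joined intervals, since 2 pairs of zones overlap. Besides the clusters already named they held Mir144, Mir451a and Mir451b of red blood cell formation, 5.30 kb from the breakpoint at the nearest gene, Mir451a. Others held genes of several loci: Mir8111, Mir1199 and Mir709 on chromosome 8, Mir7659, Mir6907, Mir6410 and Mir6908 on chromosome 10, and Gm27775, Mir6968, Mir3083 and Gm51291 on chromosome 17. On chromosome 16 a pair of overlapping zones held Mir1306, Gm24572 and Mir185. Mir1306 and Gm24572 lie inside Dgcr8, the partner of Drosha, so a gene of the processing machinery and the miRNA genes within it shared a zone.

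The median base composition of the hairpins did not separate genes in zones from those outside. Hairpin sequences were matched for 919 genes, with a median GC content of 52.3% both for the 250 in zones (quartiles 45.8 to 58.7%) and for the 669 outside (quartiles 45.6 to 58.0%). In 4 classes of rising GC content, set after the values had been seen, the shares of genes in zones were 26.5, 28.7, 24.9 and 28.7%. Counted by locus, they were 24.5, 28.6, 26.3 and 30.3%, and no interval was computed for these.

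The proteins that make and use miRNAs were described from a list of 22 genes, of which 14 had a base in a zone, 63.6% (43.0 to 80.3%). Among all protein-coding genes 32.9% did. The listed genes are long, with a median of 52.2 kb against 17.6 kb for all protein-coding genes, and long genes meet a zone more readily. Wholly in a zone were 5 of 22, 22.7%, against 18.7% of protein-coding genes, and 5 of 22 midpoints lay in a zone. Of the nuclear microprocessor, Dgcr8 and the helicase gene Ddx5 were wholly in zones, Drosha over 25.8% of its body, and Ddx17 was 28.7 kb away. Of the export factors Ran was wholly in a zone and Xpo5 14.4 kb outside. Dicer1 was covered over 43.5%, its partner gene Prkra wholly, and Tarbp2 was 32.1 kb away. Of the silencing complex 6 of 7 genes met a zone. Ago4 did so whole, Ago2, the Argonaute that cuts its targets, over 41.2% with an end 1.13 kb from a breakpoint, and Ago1 over 11.0%, while Ago3, which neighbours Ago1, was 33.3 kb away. The scaffold genes Tnrc6a, Tnrc6b and Tnrc6c were covered over 10.5, 22.7 and 30.7%. Among the genes that control or degrade precursors 2 of 6 met a zone, Tut7 over 9.99% and Trim71 over 21.4%. The let-7 blockers Lin28a and Lin28b were 49.8 and 286 kb away, Tut4 29.4 kb and Dis3l2 125 kb.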

How the data were processed

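The authors deposited 1 list of initiation zones from the OK-seq library. Per the file headers its unit is distance and position in bp (another unit than counts or signal), with a bin each for the breakpoint, the minimum and the maximum. Per the submitters' processing notes the build was mm10 and the tools, with no role stated, were SAMtools, Picard 2.8.2, Bowtie, BWA 0.7.13, Trim Galore 0.4.2 and bcl2fastq. The calling of zones was not given in the sources used here. Depth is unknown.

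Zones ran from the minimum to the maximum bin, both included. Genes on chromosomes 1 to 19 came from the RefSeq table of GRCm38.p6, without 333 scaffold genes. Sex chromosomes were not analysed here. A host was the protein-coding body that holds the gene, on its own strand where known, and the shortest of several; host strand and start came from the RefSeq promoter table. Placement was tested on simulated intervals (python 3.11.15, numpy 2.4.6, pandas 2.3.3, scipy 1.17.1). Intervals of differences were Newcombe 95% intervals. No p-value was computed.

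The text names listed families and clusters of stem cells, differentiation and imprinting, loci of 5 or more genes, zones with 3 or more, genes nearest to and farthest from zones or limits, and the processing list. Mir92b, Mir32, Mir350, Mir5121 and the hosts with several genes were chosen after seeing their values. Members and lists were chosen with earlier results of these data known. The alternatives were other widths, arms, parts of the zone, margins and gene sets.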

Additional observations from a re-analysis of the deposited data

How the results depend on the processing

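Of 64 alternative values over 8 results, 44 stayed within the interval of the value reported and 20 fell outside it. Of these values, 0 changed the sign of a called value. A change of sign was counted only where the reported interval of a difference excluded 0, which left the miRNA and protein-coding difference alone. Joining overlapping zones cannot change any of the values, so its results are among the 44 by construction. The same holds for asking that a midpoint lie wholly in a zone. Keeping the 1429 zones of median width or more lowered the shares in zones to 15.49% of genes, 16.31% of loci, 15.49% of inside genes and 15.49% of outside genes, and raised the median distance to 217.7 kb. Keeping the 2572 zones with both arms below 100 kb gave 21.83% of genes, 22.79% of loci, 21.64% of inside genes and a median distance of 101 kb. The central part of the zone, the inner part of each arm, gave 11.8% of genes, 12.29% of loci, 10.88% of inside genes, 13.8% of outside genes, 36.36% of processing genes and 113.6 kb. A margin of 20 kb gave 31.6% of genes, 34.41% of loci and 33.29% of inside genes. The median distance to the breakpoint bin was 147.6 kb, and 22.73% of processing genes lay wholly in a zone. These follow from fewer, smaller or larger intervals.

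The difference of inside and outside shares was -0.61 points with arms below 100 kb, -2.92 points in the central part, 0 with wide zones and 5.40 points with the margin of 20 kb (interval -0.44 to 10.96), and each interval included 0. The difference of miRNA and protein-coding shares stayed positive but had an interval that included 0 with wide zones (0.64 points), in the central part (0.36 points) and with the margin (1.65 points). No paired analysis was possible because there is 1 library. The depth of that library is unknown, so zones that it was too shallow to call cannot be told from their absence.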
